A study of Homo sapiens with 11 samples.

Results

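The 31 genes described here encode the machinery that makes cholesterol and fatty acids and the proteins that control it, of 20249 named genes on the arrays. The rule that lists them names genes by their function in the pathway and uses no measured value, although results of these data were known when it was written, and each was read from its brightest probe. A549 and HCC827 are established human lung adenocarcinoma cell lines. In each line, cells infected with an empty pMXs-Neo retrovirus (mock) were compared with cells infected with the same retrovirus carrying the FLAG-tagged wild-type coding sequence of TRIM58 (TRIM58-WT), a ubiquitin ligase, and all cells had been selected with G418. Clones were isolated from the infected A549 cells, whereas the study called its HCC827 transfectants crude. Whether the replicates of a group were separate infections, separate clones or repeated cultures was not given, so p-values measure the spread between these samples, which may be technical or clonal. There were 3 replicates of A549 mock, 3 of A549 TRIM58-WT, 2 of HCC827 mock and 2 of HCC827 TRIM58-WT on 11 one-colour arrays, because mock replicate 1 of A549 was measured on 2 arrays, which were averaged.

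Cholesterol is built from acetyl-CoA through mevalonate, the isoprenoids, squalene and lanosterol, and fatty acids are built from the same acetyl-CoA. The SREBP transcription factors (SREBF1 and SREBF2) switch on most of these genes when the endoplasmic reticulum is poor in sterol: SCAP then carries them to the Golgi for cleavage, and INSIG1 holds SCAP back when sterol is plentiful. SREBF2 is known mainly for sterol genes and SREBF1 mainly for fatty acid genes. In the lung the pathway also supplies the lipid of surfactant.

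SREBP factors are known to act at sterol regulatory elements together with the factor that binds CCAAT boxes and with Sp1 at GC boxes, so the 250 bases upstream of the annotated starts were searched on both strands for a sterol regulatory element (TCACNCCA), for the box CCAAT, for an E-box (CACGTG) and for a GC box (GGGCGG). The first of these letters can overlap the second, and CACGTG reads the same on both strands. RefSeq promoter windows (GRCh38.p14) were matched for 27 of the 31 genes. A gene counted as holding a motif if any of its annotated starts had it. CCAAT was found in 20 of these 27 genes (74.1%), against 37.0% of the 27305 genes with a window. GGGCGG was found in 26 of 27 (96.3%, against 46.2%), TCACNCCA in 3 of 27 (11.1%, against 3.92%) and CACGTG in 3 of 27 (11.1%, against 7.73%). The 27305 genes were not limited to those on the arrays or detected in these cells. Stretches of 80 bases are shown for HMGCS1, STARD4 and ACSS2, whose levels in A549 are described first, for the 3 genes with TCACNCCA (SREBF2, MVK and MSMO1) and for FADS2, which stood on the other side of zero. Each is written 5′ to 3′ along the gene, with letters of any of the 4 motifs, on either strand, in capitals.
HMGCS1, chr5:43313508-43313587, minus strand: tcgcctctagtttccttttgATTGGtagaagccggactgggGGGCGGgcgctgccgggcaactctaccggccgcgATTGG
STARD4, chr5:111512637-111512716, minus strand: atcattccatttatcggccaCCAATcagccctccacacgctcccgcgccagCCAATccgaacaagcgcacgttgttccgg
ACSS2, chr20:34874846-34874925, plus strand: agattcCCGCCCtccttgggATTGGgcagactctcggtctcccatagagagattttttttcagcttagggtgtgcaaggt
SREBF2, chr22:41832952-41833031, plus strand: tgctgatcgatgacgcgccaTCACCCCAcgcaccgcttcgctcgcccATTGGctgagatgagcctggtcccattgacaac
MVK, chr12:109573579-109573658, plus strand: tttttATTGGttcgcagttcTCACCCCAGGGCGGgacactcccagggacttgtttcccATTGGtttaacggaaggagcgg
MSMO1, chr4:165327493-165327572, plus strand: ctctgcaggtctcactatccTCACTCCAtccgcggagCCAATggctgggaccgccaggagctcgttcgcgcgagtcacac
FADS2, chr11:61816123-61816202, plus strand: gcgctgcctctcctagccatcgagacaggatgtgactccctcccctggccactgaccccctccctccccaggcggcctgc
HMGCS1 and STARD4 each carried a pair of CCAAT boxes in the stretch shown, MVK carried the sterol element directly beside a GC box, and the FADS2 stretch, the last 80 bases before one of its starts, held none of the 4 motifs (a GC box was found before another FADS2 start). HMGCS1, ACSS2, IDI1 and ACACA each had another start with GC boxes but no CCAAT. A match describes the letters and is not evidence that a factor binds there.

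Signal was above background for 40.1 to 49.99% of probes per array, no spot was saturated, and all levels below are log2 signals relative to the 75th percentile of the same array. Some arrays stood apart. The A549 array labelled TRIM58-WT replicate 1 had the highest share of probes above background (49.99%), and over all probes it differed from TRIM58-WT replicates 2 and 3 with a standard deviation (SD) of 0.94 and 0.91. A549 mock replicate 3 differed from the other mock arrays with an SD of 0.80 to 0.91, whereas TRIM58-WT replicates 2 and 3 differed from each other by 0.34, as little as the 2 arrays of mock replicate 1 (0.35). The TRIM58 probe was well above background on 1 of 11 arrays, A549 mock replicate 3 (log2 level -0.71), and on none labelled TRIM58-WT; whether it lies within the transfected coding sequence was not given in the sources used here. Of 5 epithelial markers, CDH1, KRT8, KRT18 and KRT7 were detected on all arrays of both lines. EPCAM was detected on all 4 arrays of HCC827 and on 5 of A549. Of 4 lung lineage markers, NKX2-1 was detected on all 4 arrays of HCC827 and on none of A549, NAPSA on 4 and 2, SFTPB on 2 and 0, and SFTPC on 1 and 3. The endothelial markers PECAM1, CDH5 and VWF and the fibroblast markers COL1A2, DCN and PDGFRB were detected on no array, and LUM, the remaining fibroblast marker, on 3 of A549, with a mean of -1.39 in mock and -4.64 in TRIM58-WT. Of the blood cell markers, CD3E was detected on no array, PTPRC on 4 of A549 and 3 of HCC827, and CD68 on all (log2 difference -0.91 in A549, adjusted p = 0.0857). Of the epithelial markers, EPCAM (log2 difference -4.88, adjusted p = 0.0117, limma) and KRT8 (-1.37, adjusted p = 0.0260) were lower in A549 TRIM58-WT than in mock. EPCAM, not detected on every A549 array, had a mean of -2.85 in TRIM58-WT, so its difference is not exact. CDH1 (-2.33, adjusted p = 0.0715), KRT18 (-0.65, adjusted p = 0.133) and KRT7 (0.25, adjusted p = 0.724) did not pass. The part of these markers in the results below was not tested. In such bulk samples fewer cells of a kind and less RNA per cell cannot be told apart.

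In A549, 3 genes of cholesterol synthesis and transport were lower in the cells labelled TRIM58-WT than in mock. STARD4, a carrier of cholesterol between membranes, HMGCS1, the synthase of HMG-CoA at the entry to mevalonate, and FDFT1, the squalene synthase, were called lower, which here means an adjusted p under 0.05 in limma together with at least a 2-fold difference. Thus 3 of 29 tested genes were called lower, against 3.43% of all 16919 tested probes, and none was called higher, against 3.49%. Of the 3, STARD4 passed the filter on dim probes through mock alone. At an unadjusted p under 0.05, 9 of 29 were lower (31.0%, against 12.2% of all tested probes) and 2 were higher (6.90%, against 13.1%). The methods' t-test called none in either direction, with adjusted p of 0.139 for STARD4, 0.247 for HMGCS1 and 0.280 for FDFT1. Of the 29, 21 lay below zero and 8 above, with a median log2 difference of -0.45, against 0.06 over all tested probes, of which 55.1% lay above zero. Without overlap between the replicates, 10 of 29 genes were lower in TRIM58-WT (34.5%, against 15.1% of all tested probes) and 2 were higher (6.90%, against 15.9%). MSMO1 and SC5D were too dim on too many A549 arrays to be tested. Scaling each array to its median instead moved all probes by -0.37 in this comparison and took the share of called probes that were higher from 50.5 to 25.6%, and every A549 difference given here is relative to the 75th percentile.

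**Figure D1:**
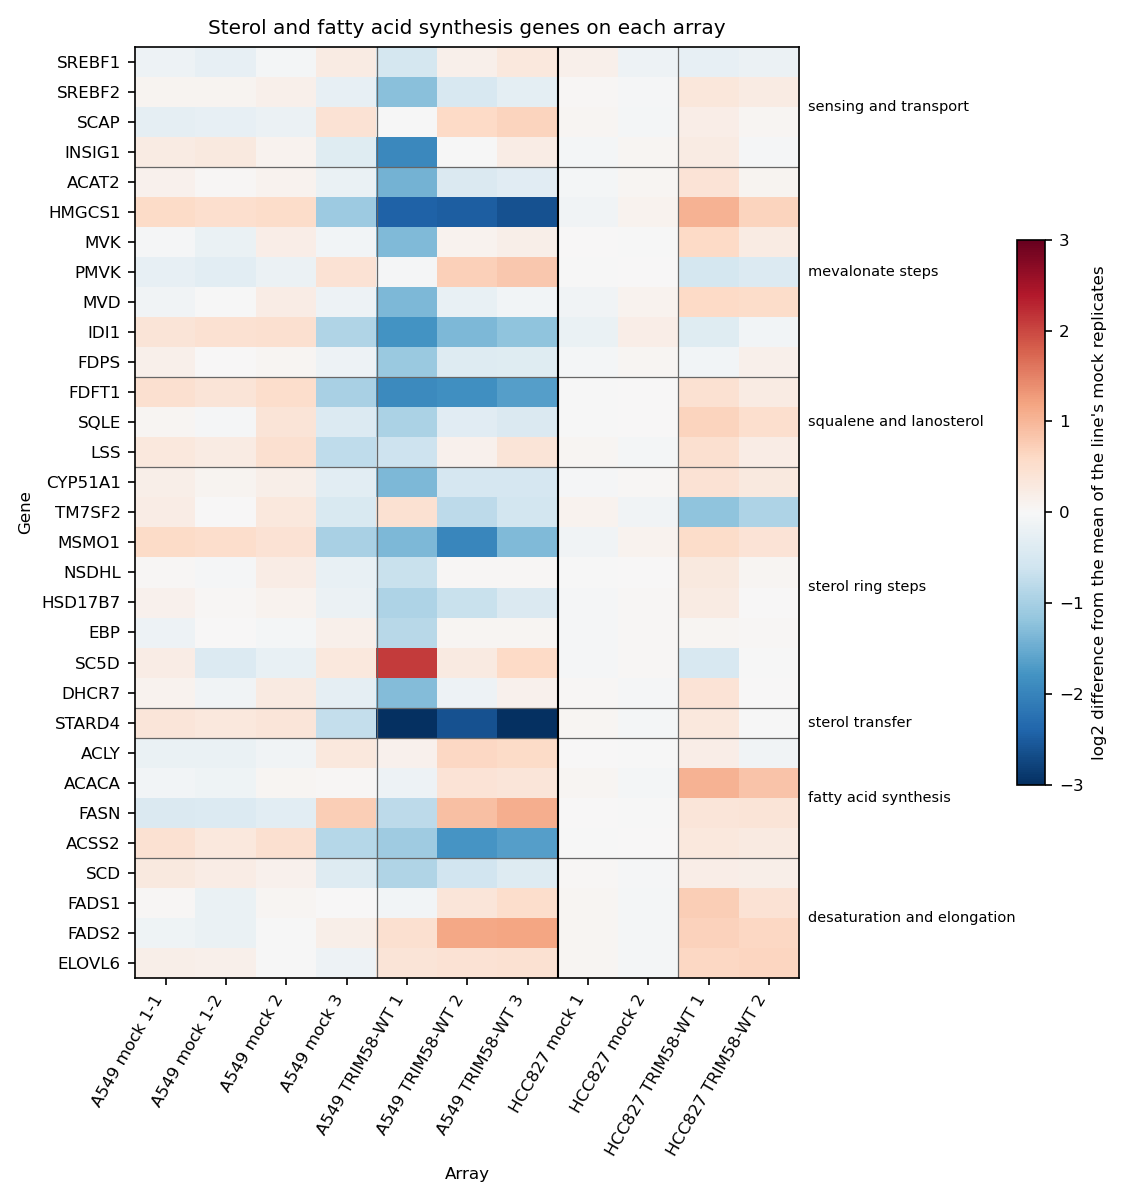
Each cell gives the log2 difference of a gene on an array from the mean of the mock replicates of the same line, with colours capped at 3 in either direction, arrays in columns and genes in rows grouped by step of the pathway. The dark blue cells of HMGCS1, FDFT1 and STARD4 run across all 3 arrays labelled TRIM58-WT in A549, TRIM58-WT replicate 1 is blue over most sterol genes, and the HCC827 TRIM58-WT arrays are mostly pale red.

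STARD4 stood at log2 levels of 0.13 and 0.08 on the 2 arrays of A549 mock replicate 1, 0.13 in mock replicate 2, -0.94 in mock replicate 3, and -3.65, -2.84 and -4.55 in TRIM58-WT replicates 1 to 3. The groups did not overlap, and mock replicate 3 was the lowest mock. On none of the 3 TRIM58-WT arrays was the probe well above background, so STARD4 was at least 5.25-fold lower there (measured means -3.68 ± 0.86 and -0.24 ± 0.61, SD, n = 3 and 3; adjusted p = 0.0127, limma). It entered the test through mock alone, so its p-values and interval rest on TRIM58-WT values not well above background. Among probes well above background on every array STARD4 was not tested, and HMGCS1 and FDFT1 were called lower. The fit gave -3.45 on the log2 scale, with a 95% interval of -4.65 to -2.24. It gave an adjusted p of 0.0711 without mock replicate 1 and 0.0623 without mock replicate 2, so that the call was lost in both. With normexp background correction the difference shrank to -0.86 (adjusted p = 0.0357), under 2-fold, and HMGCS1 and FDFT1 were not called either.

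HMGCS1 stood at 1.91 and 1.85 on the arrays of mock replicate 1, 1.88 in replicate 2 and 0.25 in replicate 3, and at -1.10, -1.13 and -1.28 in the 3 TRIM58-WT replicates. The TRIM58-WT values were close together and below every mock, with mock replicate 3 between the groups. The mean was 5.68-fold lower in TRIM58-WT (-1.17 ± 0.10 against 1.34 ± 0.94; log2 difference -2.51, 95% interval -3.59 to -1.42, adjusted p = 0.0242). The call was lost without mock replicate 1 or 2 (adjusted p = 0.107 and 0.0938) and without TRIM58-WT replicate 2 or 3 (0.0921 and 0.104), and without mock replicate 3 the difference was -3.05 (adjusted p = 0.000611).

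FDFT1 stood at 4.85 and 4.74, 4.89 and 3.40 on the mock arrays in the same order, and TRIM58-WT had 2.46, 2.52 and 2.70. Again the TRIM58-WT values were close together, and mock replicate 3 lay between them and the other mocks. The mean was 3.49-fold lower (log2 difference -1.80, 95% interval -2.78 to -0.82, adjusted p = 0.0452). Leaving out mock replicate 1 or 2 or any one TRIM58-WT replicate took its adjusted p to between 0.0775 and 0.181. When the 2 similar TRIM58-WT replicates, 2 and 3, were merged (a choice made after seeing the data), STARD4 alone of the 3 was called (adjusted p = 0.0230, against 0.0988 for HMGCS1 and 0.145 for FDFT1).

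**Figure D2:**
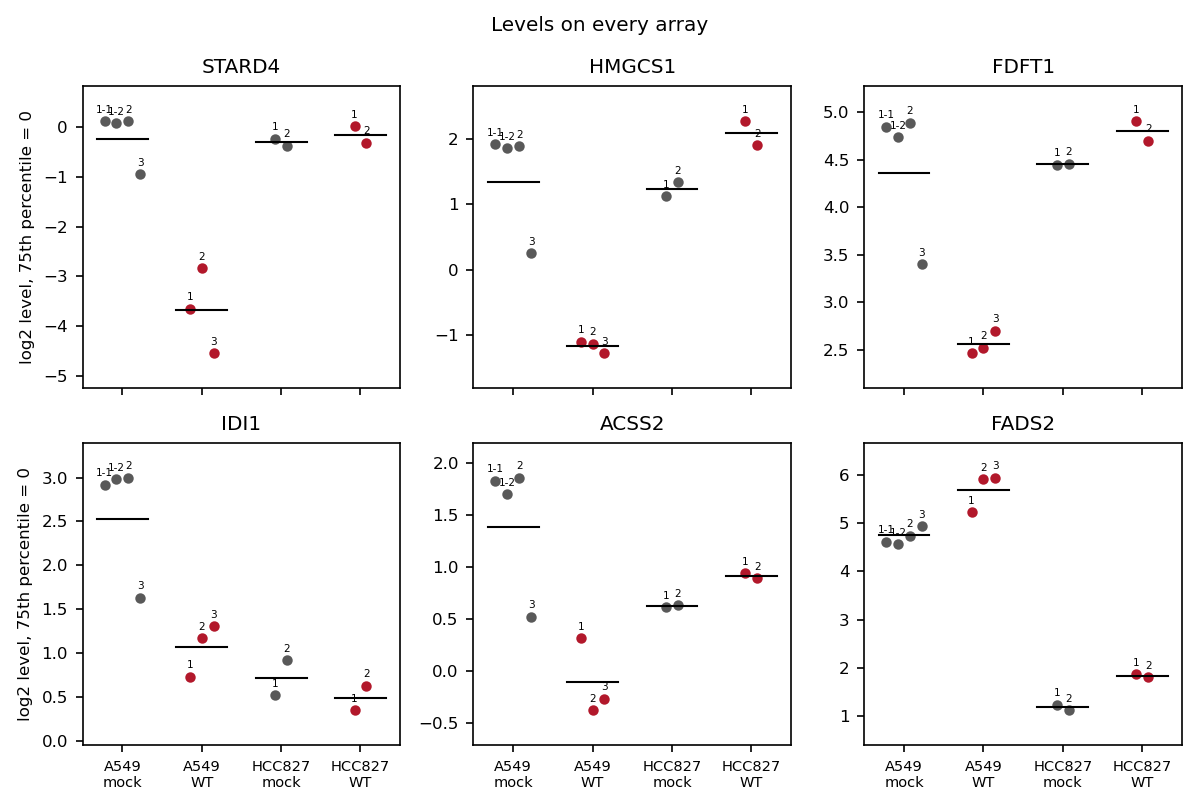
Points are the log2 levels (array 75th percentile = 0) of 6 genes on each of the 11 arrays, numbered by replicate, in grey for mock and red for TRIM58-WT, and lines are group means. In A549, mock replicate 3 lies between the other mocks and TRIM58-WT for STARD4, HMGCS1, FDFT1 and IDI1, and FADS2 lies higher in A549 than in HCC827 on every array.

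The other mevalonate enzymes did not pass the test in A549. IDI1, the isomerase that makes the building block of isoprenoid chains, stood at 2.92 and 2.98, 3.00 and 1.63 in the mocks and at 0.73, 1.17 and 1.31 in TRIM58-WT (log2 difference -1.46, adjusted p = 0.0776). The groups did not overlap. ACAT2, which joins acetyl-CoA units (-0.73, adjusted p = 0.209), and FDPS, the farnesyl diphosphate synthase (-0.62, adjusted p = 0.184), were also lower in each TRIM58-WT replicate than in each mock. MVK, the mevalonate kinase (-0.34), and MVD, which decarboxylates mevalonate diphosphate (-0.56), overlapped between the groups, as did PMVK, the phosphomevalonate kinase (0.49). The 7 mevalonate genes had a median log2 difference of -0.62, with 6 of 7 below zero.

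After squalene, fewer genes stood apart. SQLE, the squalene epoxidase (-0.58, adjusted p = 0.251), and LSS, the lanosterol synthase (-0.04, adjusted p = 0.971), overlapped between the groups. Of the sterol ring enzymes, 6 of 8 were tested and all 6 lay below zero, with a median of -0.37 and none called. CYP51A1, the lanosterol demethylase, and HSD17B7, a sterol ketone reductase, did not overlap between groups (-0.79, adjusted p = 0.151, and -0.68, adjusted p = 0.0830), and the remaining pair of HSD17B7 probes gave -0.87 and -0.66. TM7SF2 (a sterol reductase), NSDHL, EBP and DHCR7 (the last reductase before cholesterol in one branch) lay between -0.45 and -0.20. MSMO1, an oxidase of ring methyl groups, was well above background on 3 of 4 mock arrays (-1.25, -1.28 and -1.39, with -2.79 in mock replicate 3). It was well above background on no TRIM58-WT array (-3.16, -3.78 and -3.14). With TRIM58-WT values raised to at least the lowest signal well above background, its mean was 1.76-fold lower there. Mock replicate 3 was itself dim, so this is not a strict lower bound. SC5D was well above background on no A549 array.

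Among the regulators, SREBF2 was lower in each TRIM58-WT replicate (0.15, 0.92 and 1.12) than in each mock (1.16 to 1.56), by -0.67 with an adjusted p of 0.210. SREBF1 was at 5.30, 5.98 and 6.14 in TRIM58-WT and at 5.58 to 6.08 on the mock arrays, with no difference beyond the replicate spread (-0.02, 95% interval -0.66 to 0.62), and its dimmer probe gave 0.35. SCAP stood 0.42 higher in the mean (adjusted p = 0.420), with overlapping groups. INSIG1, itself a target of the pathway, was at 1.60 and 1.82 in TRIM58-WT replicates 2 and 3, as in the mocks (1.23 to 1.89), but at -0.33 in TRIM58-WT replicate 1.

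Of the 8 fatty acid genes tested in A549, none was called and 6 lay above zero. ACSS2, which makes acetyl-CoA from acetate, was at 1.83 and 1.70, 1.86 and 0.52 in the mocks against 0.31, -0.38 and -0.27 in TRIM58-WT (log2 difference -1.50, adjusted p = 0.0731). FADS2, the delta-6 desaturase of polyunsaturated fatty acids, was at 4.62 and 4.57, 4.74 and 4.94 in the mocks and at 5.23, 5.92 and 5.95 in TRIM58-WT, without overlap (0.95, 95% interval 0.36 to 1.53, adjusted p = 0.0650). It passed the test as higher when TRIM58-WT replicate 1 was left out. ELOVL6, which lengthens palmitate, did not overlap either (0.37 ± 0.17 in mock, 0.81 ± 0.03 in TRIM58-WT, n = 3 each; adjusted p = 0.151). ACLY, which splits citrate to acetyl-CoA, ACACA, the acetyl-CoA carboxylase, FASN, the fatty acid synthase, and FADS1, the delta-5 desaturase, overlapped between groups, with log2 differences of 0.21 to 0.45. FASN was at 3.27, 4.97 and 5.14 in TRIM58-WT replicates 1 to 3. In the mocks it was at 3.63 and 3.65, 3.75 and 4.79, highest in replicate 3. SCD, which makes oleate, stood at -0.61 (adjusted p = 0.177). The median was 0.31 over the 4 synthesis genes and 0.35 over the 4 desaturases and elongases, but -0.06 and -0.02 when arrays were scaled to their medians, which lowers every A549 difference alike, so the direction of these medians depends on the scaling.

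**Figure D3:**
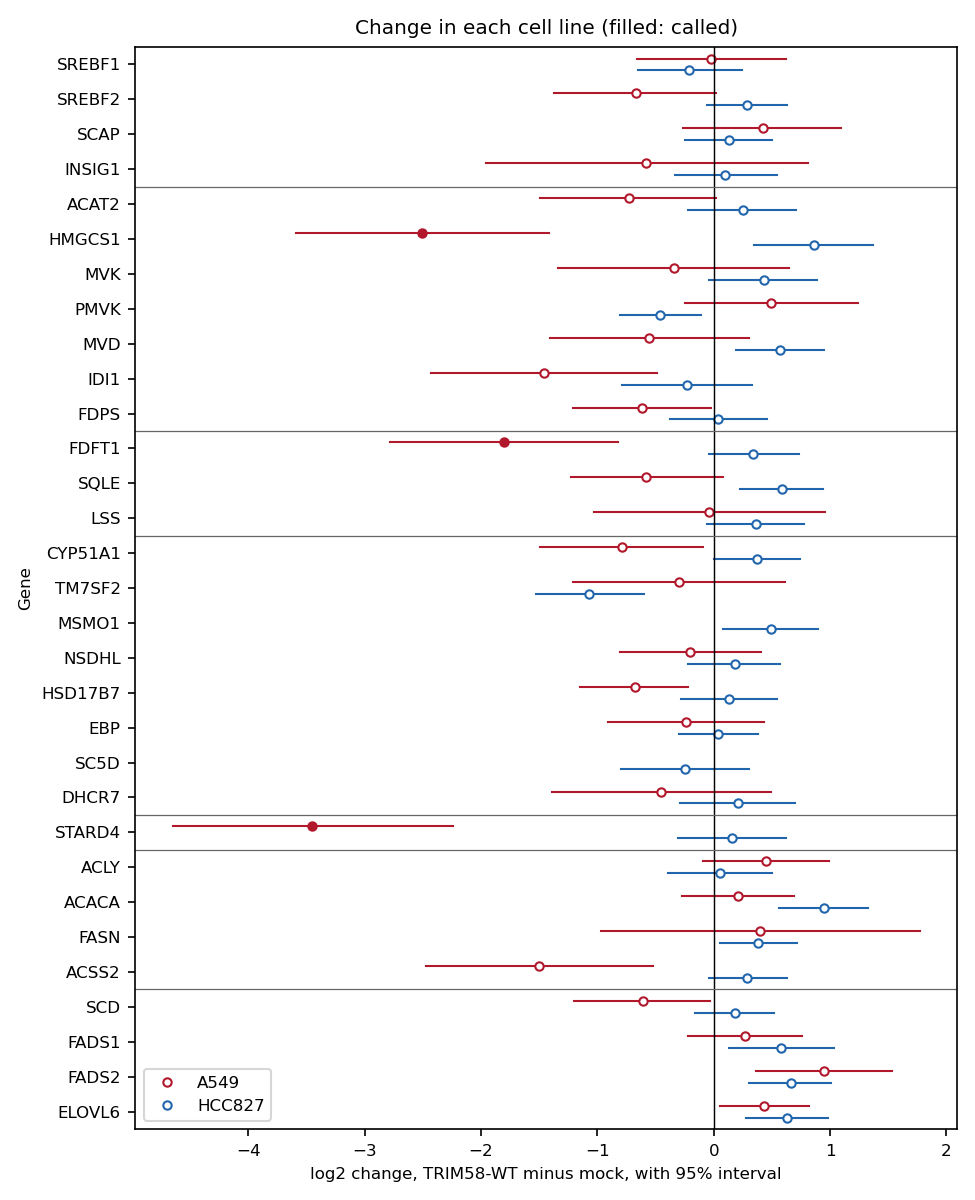
Points are log2 changes from mock to TRIM58-WT with 95% intervals from limma, red for A549 and blue for HCC827, filled where called. HMGCS1, FDFT1 and STARD4 are the filled points, all in A549, while most HCC827 intervals lie near or to the right of zero.

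The A549 values can also be read beside the promoter motifs. Of the 18 tested genes with a CCAAT box upstream of any start, 16 lay below zero (median -0.57). Of the 7 without one (SREBF1, SCAP, PMVK, CYP51A1, FADS1, FADS2 and ELOVL6), 2 lay below zero (median 0.42). In HCC827, 3 of 20 genes with the box (median 0.18) and 2 of 7 without it (median 0.37) lay below zero. The other motifs were split alike in A549. For TCACNCCA, 2 of 2 genes with it (median -0.51) and 16 of 23 without it (-0.30) lay below zero. For CACGTG it was 1 of 2 (-0.08) and 17 of 23 (-0.34), and for GGGCGG 17 of 24 (-0.40) and 1 of 1 (-0.20). Among the genes without CCAAT, FADS1, FADS2 and ELOVL6 are fatty acid genes and SREBF1 and SCAP regulators, so this split overlaps that by role. These are descriptions of chosen genes and were not tested.

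Position in the genome also moved with the A549 result. HMGCS1 and STARD4 are both on chromosome 5, whose other 489 tested genes had a median of -0.48, and FDFT1 and SQLE are both on chromosome 8, with a median of -0.50 over 378 genes, against 0.03 over all tested genes. The 20 nearest tested genes had medians of -0.56 around HMGCS1, -0.54 around STARD4, -0.32 around FDFT1 and -0.38 around SQLE. Each of the 3 called genes lay further below zero than the median of its neighbours (-2.51, -3.45 and -1.80 for HMGCS1, STARD4 and FDFT1), and SQLE, at -0.58, lay closer to its own. ACSS2 on chromosome 20 had neighbours at 0.02, and IDI1 on chromosome 10 had 15 neighbours at -0.33. How much of each difference belonged to the chromosome was not tested.

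**Figure D4:**
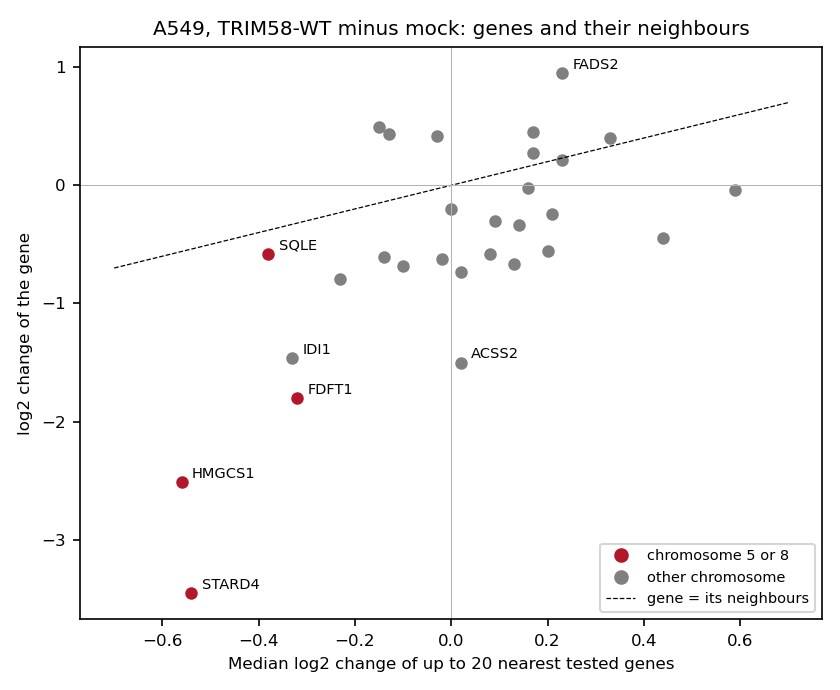
Each point is a gene tested in A549, with its own log2 difference on the vertical axis and the median of its nearest tested genes (up to 20) on the horizontal axis, in red on chromosomes 5 and 8. Genes on the dashed line would equal their neighbours, and STARD4, HMGCS1, FDFT1, IDI1 and ACSS2 lie well below it.

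Single arrays mattered in A549. TRIM58-WT replicate 1 was the lowest of the 6 replicates for 19 of 31 genes, 12 of them among the 18 enzymes from ACAT2 to DHCR7, against 29.8% of all probes tested in A549. Relative to the mock mean the 31 genes had a median of -0.94 on this array, -0.16 on TRIM58-WT replicate 2 and 0.04 on replicate 3. For several genes, among them MVK, NSDHL, EBP and DHCR7, this one array stood apart from the other 2. MVK was at 3.32 there and at 4.73 and 4.81 in replicates 2 and 3, against 4.44 to 4.83 in the mocks, and DHCR7 was at 4.07 there and at 5.23 and 5.50, against 5.12 to 5.64. Without it the median over the tested genes was -0.02. Mock replicate 3 was below both other mocks for 20 of 31 genes, against 33.7% of tested probes, with a median of -0.30 relative to their mean, and without it 6 genes were called lower (HMGCS1, IDI1, FDFT1, MSMO1, STARD4 and ACSS2), in a fit that called 1147 of 18178 probes lower.

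The arrays came from 2 slides. All HCC827 arrays, TRIM58-WT replicate 1 and a pair of mock arrays of A549 were on slide 1, and the remaining A549 arrays were on slide 2. Within slide 1 the log2 differences were -3.78 for STARD4, -2.99 for HMGCS1 and -2.41 for FDFT1, and within slide 2 they were -3.27, -2.26 and -1.46. The median over the tested genes was -1.11 within slide 1 and -0.01 within slide 2. Replicate 1 was the only TRIM58-WT array of A549 on slide 1, so slide and replicate cannot be told apart in these values. The 2 arrays of mock replicate 1, one on each slide, differed by a median of -0.06 over the 31 genes.

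In HCC827, where all 31 genes were tested, most had a higher mean in TRIM58-WT, and no single gene passed the test. None was called higher or lower, against 0.292 and 0.594% of 19542 tested probes, while 9 were higher (29.0%, against 11.4% of all tested probes) and 2 lower (6.45%, against 8.87%) at an unadjusted p under 0.05 in limma, and the methods' t-test called none. Of the called probes 32.9% were higher, and 46.2% with median scaling. Of the 31, 26 lay above zero, with a median of 0.25 against 0.01 over all probes, of which 51.1% lay above zero. Without overlap, 18 of 31 were higher (58.1%, against 29.6% of all tested probes) and 3 were lower (9.68%, against 27.1%). Every one of the 4 desaturases and elongases lay above zero (median 0.60), as did the 4 fatty acid synthesis genes (0.34) and the 3 genes from squalene to lanosterol (0.36), and these signs held under all 4 scalings.

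By brightest probe, ACACA was the furthest above zero in HCC827, with mock levels of 4.50 and 4.40 against 5.49 and 5.31 under TRIM58-WT (0.95, 95% interval 0.56 to 1.33, adjusted p = 0.0780), and its dimmer probe gave 0.80. LSS stood at 0.36 by its brightest probe and at 1.00 by its dimmer one (adjusted p = 0.112). HMGCS1 was at 1.12 and 1.33 in mock and at 2.27 and 1.90 in TRIM58-WT (0.86, adjusted p = 0.125). FADS2 was at 1.23 and 1.12 against 1.86 and 1.80 (0.66, adjusted p = 0.111), and ELOVL6 at 1.88 and 1.76 against 2.43 and 2.47 (0.63, adjusted p = 0.116). By brightest probe none of these genes overlapped between groups. SQLE (0.59), FADS1 (0.58) and MVD (0.57) were next, and FASN was at 4.44 and 4.41 against 4.80 and 4.81. On the other side, TM7SF2 was at 0.32 and 0.13 in mock and at -0.99 and -0.69 in TRIM58-WT (-1.07, 95% interval -1.53 to -0.60, adjusted p = 0.0829), and it passed as lower under median scaling and when only probes above background on every array were tested. PMVK (-0.46, adjusted p = 0.177) and SREBF1 (-0.21, adjusted p = 0.507) were also lower in both TRIM58-WT replicates. The dimmer SREBF1 probe gave 0.15. SREBF2 was higher in both (0.29, adjusted p = 0.306). STARD4 overlapped between groups in HCC827 (-0.23 and -0.37 against 0.02 and -0.31), as did IDI1, FDPS, EBP, INSIG1 and DHCR7.

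The change in HCC827 minus the change in A549 was fitted over all 4 groups. HMGCS1 (3.37 on the log2 scale, 95% interval 1.90 to 4.84, adjusted p = 0.0271) and STARD4 (3.60, interval 2.00 to 5.21, adjusted p = 0.0295) passed, which is 2 of 31 against 2.03% of 20616 tested probes on this side and 0 against 1.82% on the other. At an unadjusted p under 0.05, 11 of 31 were on the first side (35.5%, against 9.15% of all tested probes) and none on the other (against 9.25%). Of the called probes 52.6% were on the first side, and 72.1% with median scaling, which moved all probes by 0.40. The STARD4 value rests on A549 TRIM58-WT levels that were not well above background. Both calls were lost on leaving out mock replicate 1 or 2 of A549 or any one HCC827 replicate, and that of HMGCS1 also without A549 TRIM58-WT replicate 2 or 3 and with these 2 averaged (adjusted p = 0.0698). FDFT1 (2.15, adjusted p = 0.0836), MSMO1 (2.04, adjusted p = 0.118) and ACSS2 (1.79, adjusted p = 0.128) were next, and MSMO1, too, was well above background on no A549 TRIM58-WT array, so its value is not exact. FASN (-0.02, 95% interval -1.83 to 1.80) and FADS2 (-0.29, interval -1.07 to 0.49) showed no difference beyond their error, and the A549 part of these intervals is wide.

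The mock cells of the lines also differed from each other. Comparing HCC827 mock with A549 mock, 3 of 31 genes were called higher, against 16.2% of 19498 tested probes, and 5 lower, against 14.1%, so the shares were not far from the background. FADS2 differed most, at 1.23 and 1.12 in HCC827 and 4.57 to 4.94 on the A549 mock arrays, which is 12-fold lower in HCC827 (-3.58, 95% interval -4.04 to -3.13, adjusted p = 0.000171). Its neighbour FADS1 was 2.61-fold lower (-1.38, adjusted p = 0.00205), and EBP, a sterol isomerase, 2.74-fold lower (-1.45, adjusted p = 0.00202).

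IDI1 (-1.81, adjusted p = 0.0307) and SQLE (-1.21, adjusted p = 0.0184) were also lower in HCC827. The IDI1 call was lost without A549 mock replicate 1 (or 2) and without either HCC827 mock, the SQLE call without A549 mock replicate 1 and without either HCC827 mock. INSIG1 was higher, at 3.20 and 3.31 in HCC827 against 1.23 to 1.89 in A549 (3.14-fold, adjusted p = 0.00461), and ELOVL6 was 2.73-fold higher (adjusted p = 0.00267). SC5D was called higher in HCC827 (adjusted p = 0.00384), but it was not well above background on any A549 mock array, so it was at least 1.20-fold higher (measured means -2.62 and -4.18), and with normexp background correction its difference was -0.02. LSS (1.19, adjusted p = 0.0673) and HSD17B7 (0.73, adjusted p = 0.0233, below 2-fold) were not called. HMGCS1, MVK, FDFT1, STARD4, DHCR7 and NSDHL lay within 0.11 of zero, with intervals as wide as -1.50 to 1.28 for HMGCS1.

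**Figure D5:**
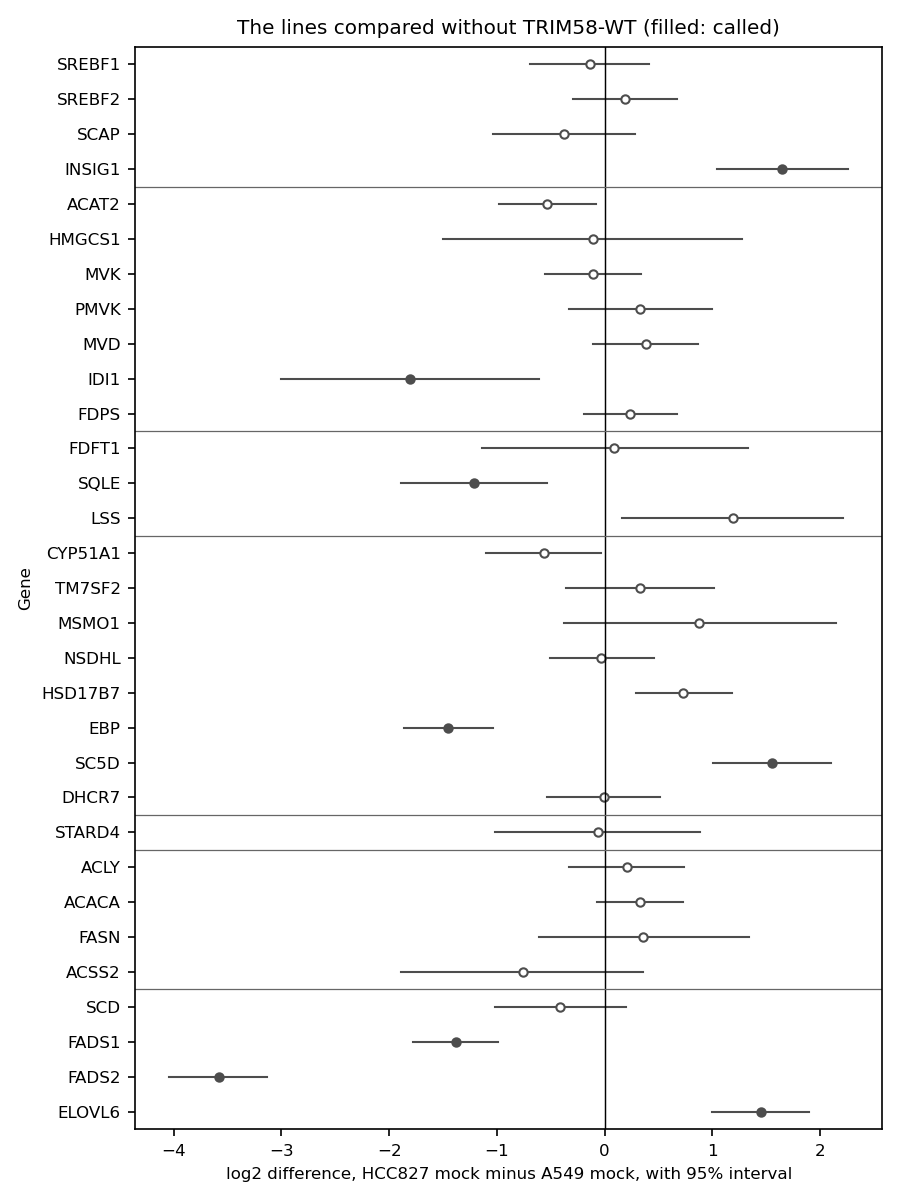
Points are log2 differences between HCC827 mock and A549 mock with 95% intervals from limma, filled where called. FADS2 lies at -3.58, far to the left of the other genes, and INSIG1, SC5D and ELOVL6 are the filled points to the right.

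Other genes of lipid handling were taken from 8 lists (sterol sensing, export, uptake and storage, isoprenoid branches, fatty acid supply, other elongases and desaturases, glycerolipids and fatty acid oxidation), 78 genes in all. In A549, 2 of 73 tested were called higher in TRIM58-WT, NPC1, which exports cholesterol from lysosomes (1.36, adjusted p = 0.00923), and ACSS1, the mitochondrial acetate enzyme (1.47, adjusted p = 0.00511), and 1 lower, ELOVL7, an elongase (-1.53, adjusted p = 0.0159), against 3.49 and 3.43% of all tested probes. In HCC827 none of 70 was called in limma. In the difference of the changes, 2 of 74 passed, MBTPS2, a protease that releases SREBP (1.01, adjusted p = 0.0356), and ELOVL7 (1.61, adjusted p = 0.0419). Between the mock cells of the lines, 21 of 74 were lower in HCC827 (against 14.1% of all tested probes) and 4 higher (against 16.2%). Among them were ABCG1, a sterol exporter (-4.82, adjusted p = 0.000149, limma), and INSIG2, a relative of INSIG1 (2.11, adjusted p = 0.00120). ABCG1 was not well above background on every array of either HCC827 group, so its difference is not exact.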

How the data were processed

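Total RNA of A549 and HCC827 transfectants was labelled with Cy3 and hybridised to Agilent one-colour human arrays. The authors deposited scanner intensities per spot and a table of log2 values baselined per probe. The submitters' processing notes name Feature Extraction 10.7, whereas the file headers name 11.5.1.1. The methods name GeneSpring for the table, in which 95.5% of values matched the scanner values within 0.01 after a baseline per probe (largest remaining difference 4.93). The table was used only as an alternative, and all 11 of its sample columns were used.

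From the deposited processed intensities, control spots and spots marked as outliers were dropped, spots of a probe were averaged, and each array's 75th percentile was subtracted on the log2 scale. The 2 arrays of A549 mock replicate 1 were averaged. Probes were named through RefSeq accessions (27241 of 42405; 28302 carried one), and the brightest probe stood for a gene. Probes well above background (over 0.5 of their spots) on every array of a group compared were tested with limma 3.58.1 in R 4.3.3 (lmFit and eBayes, Benjamini-Hochberg over all tested probes), with only the groups compared in each fit and all 4 groups for the difference of the changes. Calls needed an adjusted p under 0.05 and, except for that difference, a 2-fold change. Where a group was above background on no array, each of its arrays took the higher of its own value and the lowest signal well above background. The fold is then a lower bound if the other group was above background throughout, which MSMO1 in A549 mock was not. Errors are SD over replicates. Scripts were tested on simulated data. All 31 genes were to be described, by role, with other pathway genes named where called; the genes and lists were chosen with earlier results of these data known. The main fits did not pair the samples by replicate number. In A549, deviations from the group means correlated at 0.50, -0.42 and 0.50 for the same numbers and at -0.59 to 0.57 for different numbers. In HCC827 they correlated at 0.08 and -0.08, which must be opposite with 2 replicates. These values cannot decide whether the samples were paired. The number of arrays limits the precision. The alternatives were other scaling, background correction, filters, the authors' table, and the slide and the replicate number as blocks. Others were Welch's t-test per probe, both lines in a single fit, and each replicate left out.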

Additional observations from a re-analysis of the deposited data

Results flagged for a closer look

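HMGCS1 and STARD4 were noted because their change from mock to TRIM58-WT differed between the lines in the test of that difference. For HMGCS1 the change in HCC827 minus that in A549 was 3.37 on the log2 scale (adjusted p = 0.0271), from a change of -2.51 in A549 and 0.86 in HCC827. For STARD4 it was 3.60 (adjusted p = 0.0295), from -3.45 and 0.16. Within slide 1, which held arrays of all 4 groups, the differences were 3.86 and 3.94. Replicate 1 was the only A549 TRIM58-WT array there, and STARD4 was not well above background on it. Around HMGCS1, the 20 nearest tested genes had a median difference of 0.43, and chromosome 5 had 0.40, against -0.02 over all tested genes; the part of this in the values was not tested.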

How the results depend on the processing

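In A549, 3 genes were called lower. The count was 5 with median scaling and with the arrays of mock replicate 1 kept apart. It was also 5 with the slide as a block and with both lines in a single fit. It was 1 with no filter on dim probes and with TRIM58-WT replicates 2 and 3 averaged (chosen after seeing the data). It was 0 with normexp background correction and by Welch's t-test. With single replicates left out it ranged from 0 to 6, the count called higher from 0 to 1, and the median change from -0.64 to -0.02. That median was -1.11 within slide 1, where replicate 1 was the only A549 TRIM58-WT array, and -0.01 within slide 2. In HCC827, 1 gene, TM7SF2, was called lower with median scaling and among probes above background on every array. For the difference of the changes, 2 genes passed. The count was 4 with the slide as a block, 1 with normexp, among probes above background on every array, with the replicate number as a block and with TRIM58-WT replicates 2 and 3 averaged, and 0 without the filter on dim probes, and with single replicates left out it ranged from 0 to 7. The median difference was 1.08 with median scaling, 1.29 within slide 1 (chosen after seeing the data) and 0.29 to 0.91 with single replicates left out. Between the mock cells, 5 genes were lower, against 3 by Welch's t-test and 3 to 6 with single A549 mock replicates left out. The median was 0.18 with normexp. SC5D turned to -0.02 there. Under the replicate block 2 genes were called lower in A549 (FDFT1 had an adjusted p of 0.0644), and no call changed in HCC827. Counts over all probes moved too. In A549 they were 1171, against 507 with normexp, 609 with no filter, 673 among probes above background on every array, 1801 with the slide block, 333 with replicates 2 and 3 averaged, 24 by the t-test and 297 to 2192 with single replicates left out. In HCC827 they were 173, against 650 with median scaling, 102 with normexp, 367 among probes above background on every array, 0 with no filter, by the t-test and with the replicate block, and 0 to 461 with single replicates left out. For the difference they were 794, against 526 with median scaling, 450 with no filter, 394 on every array, 1352 with the mock arrays apart, 1681 with the slide block, 425 with replicates averaged, 322 with the replicate block and 224 to 2211 with single replicates left out. Between the mock cells they were 5904, against 3044 with normexp, 3434 on every array, 3003 by the t-test and 3773 to 6797 with single replicates left out. The cause of these changes was not tested. Dim signal limits STARD4, MSMO1 and SC5D, and also ABCG1.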
